A study of Mus musculus with 13 samples.

Results

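The transcripts of 8 genes, out of 28786 on the array, set mouse mammary tumor organoids apart from normal ones and were followed across the culture gels. They are Foxa2, Sftpd, Msln, Slc6a4, Degs2, Dmbt1, Fcer2a and Jsrp1, all 8 found by gene name, with 1 probe each. They were chosen by their measured levels, which differed between tumor and normal organoids on these same arrays, so their tumor-to-normal differences are given as a description, with no test. All 8 passed the filter on dim probes, but a gene that is bright in only one of the groups passes through that group and then has to differ. In Matrigel 7 of the 8 were higher in tumor organoids. Dmbt1 was high in normal organoids and low in tumor organoids, so the working name of genes ectopic in tumor does not describe it.

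The tumor organoids came from MMTV-PyMT mice, which express the polyoma middle T oncogene from a promoter of mouse mammary tumor virus that is active in mammary epithelium. The largest tumor of each mouse was taken at 12 to 16 weeks of age, a stage of poorly differentiated carcinoma. The normal organoids came from the mammary glands of normal FVB mice, whose age the sources used here do not give. Organoids are epithelial fragments of many cells, released by mechanical and enzymatic digestion and separated from single cells by centrifugation. Each tissue was embedded in collagen I from rat tail (3 mg/ml) or in Matrigel, a gel of basement membrane rich in laminin, and RNA was taken on day 4 of culture in medium with 2.5 nM FGF2. The groups, each of 3 mice, are tumor in collagen I (mice A, B and C), tumor in Matrigel (A, B and C), normal in collagen I (A, B and C) and normal in Matrigel (A, B and D). A letter names 1 mouse within a tissue, used in both gels where the letter recurs, and tumor and normal mice are different animals.

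The genes are known from other tissues. Foxa2 is a forkhead transcription factor that opens chromatin in endoderm-derived organs such as liver, lung and gut, and Sftpd encodes surfactant protein D, a collectin of lung defence. Msln encodes mesothelin, a surface glycoprotein of mesothelium. Slc6a4 encodes the serotonin transporter. Degs2 encodes a ceramide desaturase and hydroxylase that makes phytoceramides in gut, kidney and skin. Dmbt1 encodes a secreted scavenger-receptor glycoprotein of mucosal surfaces. Fcer2a encodes the low-affinity IgE receptor of B cells, and Jsrp1 a junctional protein of the sarcoplasmic reticulum that takes part in calcium release in skeletal muscle.

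What each measurement rests on is a single 60-base probe, and the first 30 bases of each are shown because no other probe speaks for these genes. Positions are those of the whole probe in the mm7 build, per the file headers. Whether a probe lies in a coding exon or an untranslated region was not determined here.
Foxa2, chr2:147783819-147783878, minus strand: ccattctggacatggtgaaatccaggtctc
Sftpd, chr14:38598705-38598764, minus strand: aggacaatatttggccaggagtttaaccag
Msln, chr17:23931864-23931923, minus strand: tgggtaccaggggtcattgccaaagtttga
Slc6a4, chr11:77113633-77113692, plus strand: acataaaccacctaagagaaaacagggatg
Degs2, chr12:106211190-106211249, minus strand: gatacagagtaaccaggcttacctgaactt
Dmbt1, chr7:127475099-127475158, plus strand: aaatgcttagccaagaacaatgagatggca
Fcer2a, chr8:3644433-3644492, minus strand: cctaagtagcaatgcccaatcaaaatacac
Jsrp1, chr10:80598412-80598471, minus strand: gtcccaggagaagccacggaaagagaagcc

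RefSeq promoter windows of GRCm38.p6, each 300 bases long with 250 before the start site and 50 after it, matched 4 of the 8 genes (Foxa2, Slc6a4, Degs2 and Fcer2a) with 8 start sites. Because Foxa2 itself is a forkhead factor, the windows were searched on both strands for the forkhead motif TGTTTAC and its variants TGTTTGC as well as TATTTAC, for the further forkhead variant TATTTGC, and for the TATA motif TATAAA. Of the 3 Fcer2a windows, the third held TGTTTGC at bases 190 to 196, and no other of the 8 windows held a forkhead motif. The first Fcer2a window held TATAAA at bases 218 to 223. Of the 3 Foxa2 windows, the third held TATAAA on its minus strand at bases 43 to 48. Over all 32851 windows of the table, 13.5% held a forkhead motif and 13.6% held TATAAA. The Slc6a4 window, shown because Slc6a4 was the member higher in collagen I among tumor organoids, held neither. Capitals mark the matches.
Slc6a4, chr11:76998347-76998646, plus strand: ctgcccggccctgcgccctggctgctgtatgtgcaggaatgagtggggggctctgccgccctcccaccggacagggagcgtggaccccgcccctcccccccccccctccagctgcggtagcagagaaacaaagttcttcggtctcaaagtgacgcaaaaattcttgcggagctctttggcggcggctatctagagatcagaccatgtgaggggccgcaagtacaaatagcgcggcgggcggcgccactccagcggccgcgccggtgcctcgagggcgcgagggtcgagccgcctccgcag
Fcer2a start site 1, chr8:3694125-3694424, minus strand: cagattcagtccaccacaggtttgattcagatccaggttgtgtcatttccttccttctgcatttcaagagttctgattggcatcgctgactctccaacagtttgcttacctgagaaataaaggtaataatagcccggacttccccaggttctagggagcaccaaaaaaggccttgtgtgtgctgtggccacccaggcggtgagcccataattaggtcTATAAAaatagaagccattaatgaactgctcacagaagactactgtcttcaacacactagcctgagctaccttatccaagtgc
Fcer2a start site 3, chr8:3690341-3690640, minus strand: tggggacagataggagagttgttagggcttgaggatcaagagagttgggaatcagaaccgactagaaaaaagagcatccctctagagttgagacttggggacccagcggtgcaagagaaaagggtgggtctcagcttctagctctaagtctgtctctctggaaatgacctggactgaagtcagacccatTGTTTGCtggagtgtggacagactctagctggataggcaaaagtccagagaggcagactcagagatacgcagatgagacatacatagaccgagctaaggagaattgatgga

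A level here is log2 of the probe's processed signal minus the array's 75th percentile, so 0 is the 75th percentile of that array. Levels of different probes are not set against each other, except in the summed levels of gene lists. Those sums, and the shares of genes in them, weigh each gene by its probe's signal and do not measure transcript makeup. Arrays of tumor organoids in Matrigel were the dimmest: the 75th percentile signal averaged 463 ± 96.3 there, against 737 ± 65.4 in tumor collagen I, 1076 ± 126 in normal collagen I and 956 ± 247 in normal Matrigel (SD, n = 3 each). Spots well above background made up 56.6 to 58.6% on tumor Matrigel arrays and 62.1 to 71.4% on the others. Spike-in signals relative to the 75th percentile ranged from -0.32 to 0.36 (log2) on tumor Matrigel arrays and from -2.28 to -1.47 on the others. Brightness therefore moved with the comparisons of both tissue and gel, and its part in the results was not tested. All 9 luminal epithelial genes, Krt8, Krt18 and Epcam among them, were well above background on all 12 arrays. In these bulk samples, fewer cells of a type and less RNA per cell cannot be told apart.

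**Figure D1:**
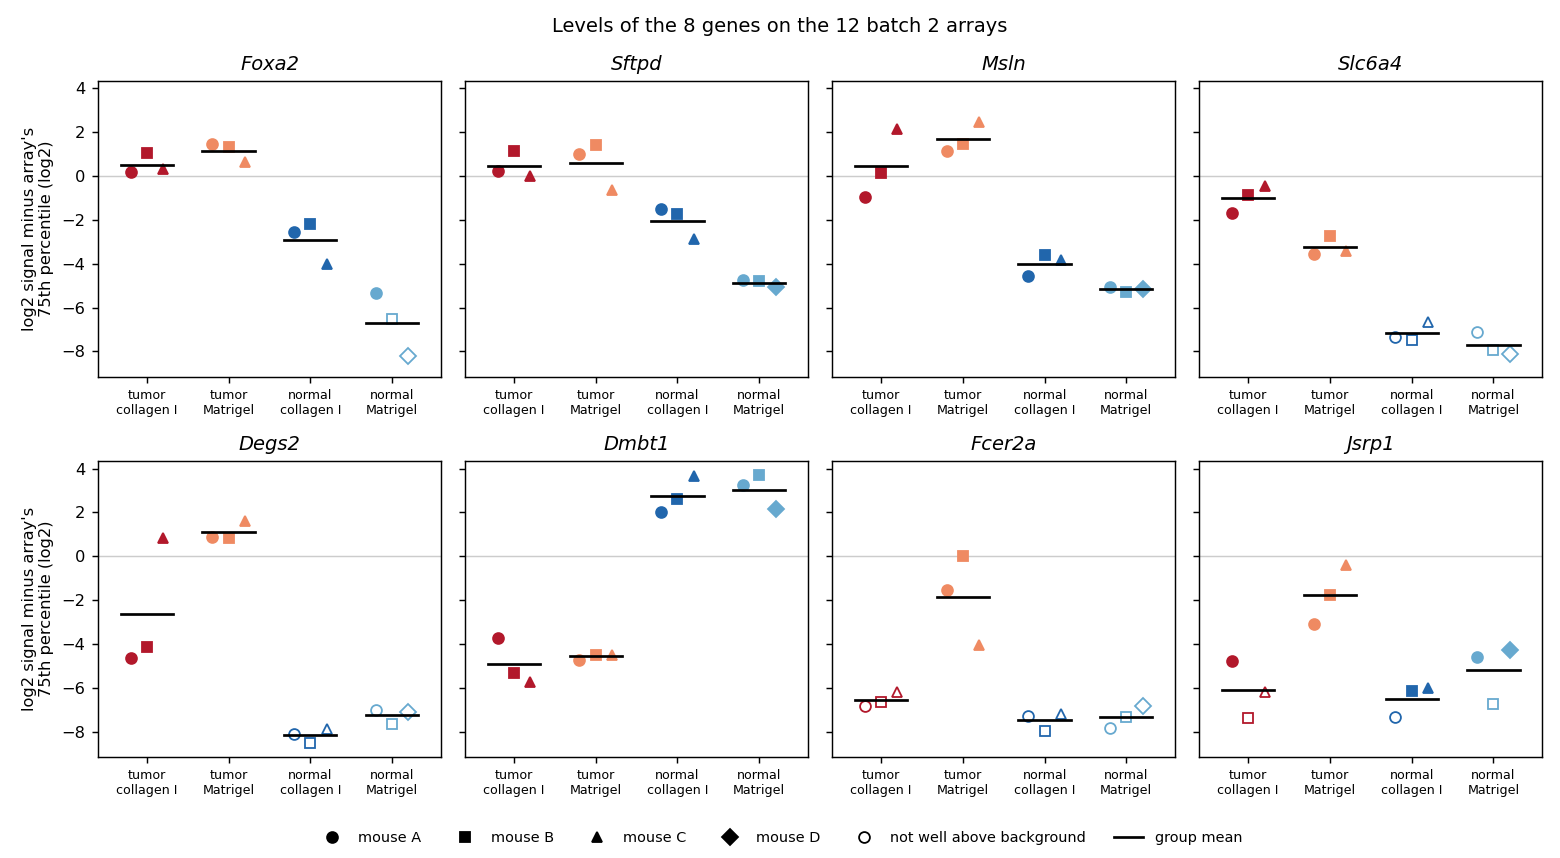
Levels of the 8 genes on each array (log2 signal minus the array's 75th percentile, vertical axis) for tumor and normal organoids in collagen I and in Matrigel. Symbols stand for mice, open symbols for probes not well above background and bars for group means; tumor and normal points do not overlap in either gel for 7 genes, among which Fcer2a in collagen I has open symbols in both tissues, and Jsrp1 overlaps in collagen I.

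Foxa2 was at 0.19, 1.04 and 0.32 in tumor organoids in collagen I, against -2.57, -2.17 and -4.00 in normal organoids in collagen I. In Matrigel it was at 1.44, 1.34 and 0.65 in tumor organoids, against -5.32, -6.54 and -8.19 in normal organoids, where only mouse A was well above background. Tumor and normal levels did not overlap in either gel. The fold of tumor over normal was 10.8 in collagen I. In Matrigel it was 227, set against a normal group in which 1 of 3 arrays measured Foxa2, and 135 without normal Matrigel D. Without normal Matrigel A, the array that measured it, the fold is only a bound, at least 167. From high to low, the order was tumor Matrigel, tumor collagen I, normal collagen I and normal Matrigel, and the tumor groups overlapped each other. Foxa2 has 10 spots on each array, which agreed to an SD of 0.03 to 0.06 on the 9 tumor and normal collagen I arrays. On normal Matrigel B the SD was 0.63, with 3 of 9 spots well above background.

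The group means of Sftpd ran in the same order. It was at 0.21, 1.13 and -0.02 in tumor collagen I, against -1.50, -1.75 and -2.85 in normal collagen I, a fold of 5.56. In Matrigel it was at 0.99, 1.43 and -0.66 in tumor organoids, against -4.73, -4.79 and -5.05 in normal organoids, a fold of 43.6. Every Sftpd value was well above background, and the tumor values in the 2 gels overlapped. Without tumor Matrigel C, the lowest of its group, the fold in Matrigel was 67.1.

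Msln was at -0.96, 0.14 and 2.16 in tumor collagen I, against -4.54, -3.62 and -3.85 in normal collagen I. In Matrigel it was at 1.16, 1.47 and 2.45 in tumor organoids, against -5.04, -5.30 and -5.15 in normal organoids. Its fold of tumor over normal was 21.9 in collagen I and 116 in Matrigel. The fold in collagen I was 12.1 without tumor collagen I C and 35.6 without A. Mouse C had the highest Msln of the tumor mice in both gels, and the tumor groups overlapped.

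On no normal array was Slc6a4 well above background, so its folds are lower bounds, set against the higher of the lowest signal well above background and the probe's own on each normal array. It was at -1.69, -0.85 and -0.45 in tumor collagen I, against -7.32, -7.48 and -6.65 in normal collagen I, which gives at least 38.7-fold. In Matrigel it was at -3.57, -2.74 and -3.42 in tumor organoids, against -7.11, -7.91 and -8.10 in normal organoids, which gives at least 7.38-fold. Slc6a4 thus had its highest levels in tumor collagen I, with no overlap with tumor Matrigel. Its bounds, and those given below for Degs2 and Fcer2a, were not reached under the normexp background correction. That correction added an offset of 50 to every signal, which by itself shrinks the differences of dim probes, here and below.

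Degs2 was likewise not well above background on any normal array. It was at -4.62, -4.13 and 0.82 in tumor collagen I, against -8.08, -8.53 and -7.85 in normal collagen I, which gives at least 12.4-fold. That bound rested on mouse C, whose level was close to those in Matrigel: it was 3.72-fold without tumor collagen I C, 20.7-fold without B and 24.5-fold without A. In Matrigel Degs2 was at 0.90, 0.81 and 1.60 in tumor organoids, against -7.01, -7.64 and -7.12 in normal organoids, which gives at least 150-fold.

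Dmbt1 went the other way. It was at -3.71, -5.31 and -5.72 in tumor collagen I, against 2.02, 2.62 and 3.66 in normal collagen I. In Matrigel it was at -4.74, -4.48 and -4.48 in tumor organoids, against 3.23, 3.72 and 2.15 in normal organoids. It was 205-fold lower in tumor organoids in collagen I and 194-fold lower in Matrigel, and 312-fold lower in collagen I without tumor collagen I A. Within each tissue the 2 gels overlapped.

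Fcer2a was well above background in tumor Matrigel only. It was at -1.55, 0.00 and -4.04 there in mice A, B and C, against -7.84, -7.31 and -6.84 in normal Matrigel, which gives at least 19.2-fold. Leaving out tumor Matrigel B gave 10.1-fold and leaving out C gave 40.8-fold. In tumor collagen I it was at -6.83, -6.65 and -6.21, against -7.27, -7.96 and -7.18 in normal collagen I, and no fold is given because both groups were below that mark on every array. The spread in tumor Matrigel, an SD of 2.04, was the widest of the 8 genes in that group.

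Jsrp1 was at -3.09, -1.76 and -0.40 in tumor Matrigel, against -4.60, -6.73 and -4.26 in normal Matrigel, a fold of 10.9, with mouse B of the normal group not well above background. The fold was 17.4 without tumor Matrigel A, 6.84 without C and 6.42 without normal Matrigel B. In collagen I it was at -4.76, -7.39 and -6.21 in tumor organoids, against -7.33, -6.16 and -6.00 in normal organoids, and these overlapped. Of those arrays 1 of 3 tumor and 2 of 3 normal ones were well above background. The difference in collagen I was 0.38 ± 0.86 (log2, SE) and turned to -0.30 without tumor collagen I A and to a fold of 0.972 without normal collagen I A.

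Counted over the 8 genes, 6 were higher and 1 lower in tumor collagen I than in normal collagen I without overlap; the 6 include Fcer2a, which no array of that gel measured, so that 5 had a measured level in tumor organoids. Among all 18274 genes tested, 18.1% were higher and 15.0% lower without overlap in that comparison. In Matrigel 7 were higher and 1 lower in tumor organoids, against 29.5% and 28.1% of all genes. Nothing is read from these counts, since the comparison chose the genes. With genes at their bound where a group was dim on all its arrays, the median difference was 3.43 over 7 genes in collagen I, Fcer2a having no value, and 4.86 over 8 in Matrigel (log2, tumor minus normal). Over all genes the medians were 0.05 and 0.08. Slides 3 and 6 held both tissues in 1 gel, as tumor B and normal D in Matrigel and tumor C and normal B in collagen I. On them Msln differed by 6.62 and 5.78, Sftpd by 6.48 and 1.74 and Dmbt1 by -6.63 and -8.34.

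The gel comparison asks whether the matrix alters these genes within a tissue. It did not choose 6 of the genes, but it uses the same arrays as the comparisons that did, and the p-values below come from limma fitted over all 18274 genes. In tumor organoids 2 of those 6 passed the threshold, Slc6a4 in the higher direction and Degs2 in the lower, beside 27.9% of all genes (15.8% higher, 12.1% lower). Of all 8, Slc6a4 was higher and Fcer2a and Jsrp1 lower without overlap between the gels, beside 19.8% and 18.6% of all genes. The median difference of all 8 was -0.94, beside -0.04 over all genes (log2, collagen I minus Matrigel). Fcer2a and Jsrp1 had already been singled out for their gel difference in tumor organoids and are described without a test.

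Slc6a4 rose in collagen I in tumor organoids by 2.25 ± 0.38 (log2, SE, 95% interval 1.40 to 3.10, limma adjusted p = 0.00349), a fold of 4.75. It was higher in collagen I in 3 of 3 mice, by 1.89, 1.89 and 2.97. The call held without each array in turn, with the highest adjusted p at 0.012, and was lost under the normexp background correction, where the difference was 0.88 (adjusted p = 0.107). Slide 8 holds tumor collagen I of mouse A and tumor Matrigel of mouse C, and the difference between them was 1.73.

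Degs2 fell in collagen I in tumor organoids by 3.75 ± 1.09 on the log2 scale (95% interval -6.16 to -1.34, limma adjusted p = 0.0279). It was lower in 3 of 3 mice, at -5.52 and -4.94 in A and B and at -0.79 in C. The call was lost without any of tumor Matrigel A, B or C or tumor collagen I A or B (adjusted p = 0.0555 to 0.105), and without tumor collagen I C the difference was -5.48 (adjusted p = 0.000253). It was also lost with the slide as a fixed block, under the normexp correction, and when only the compared groups were fitted (adjusted p = 0.158, 0.0632 and 0.101). On slide 8, between mouse A in collagen I and mouse C in Matrigel, it was -6.22.

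The other 4 tested genes did not pass in tumor organoids. The difference of Msln was -1.25 ± 0.64 (95% interval -2.66 to 0.17, limma adjusted p = 0.170), with all 3 mice below 0, and it was -2.10 without tumor collagen I C (adjusted p = 0.0118). Foxa2 had a difference of -0.63 (95% interval -2.09 to 0.83), Sftpd of -0.15 (-1.32 to 1.02) and Dmbt1 of -0.35 (-1.61 to 0.91), with adjusted p-values of 0.504, 0.855 and 0.677 in limma. These intervals do not show that the gels gave equal levels. Of the 2 genes described without a test, Fcer2a was at least 16.1-fold lower in tumor collagen I than in tumor Matrigel, and leaving out tumor Matrigel B or C gave 8.45-fold or 34.3-fold. Under the normexp correction Fcer2a was at -2.18 (log2), short of that bound of -4.01. Jsrp1 was 20.7-fold lower, set against a collagen I group in which only mouse A was well above background, and mouse A differed by -1.68. The difference of Jsrp1 was -4.37 in the main fit and -1.996 under the normexp correction (log2). Without tumor collagen I A the fold is only a bound, at least 15.2-fold lower. It was 12.9-fold lower without tumor Matrigel C, 13.3-fold without tumor collagen I B and 32.9-fold without tumor Matrigel A.

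In normal organoids 0 of the 8 genes passed in limma, and 2 had an unadjusted p under 0.05, beside 0.0438% and 9.07% of all genes. Those 2 were Foxa2 and Sftpd. Foxa2 differed by 3.77 ± 0.66 (95% interval 2.31 to 5.23, limma adjusted p = 0.0744), a fold of 13.7 of collagen I over Matrigel. Only mouse A was well above background in normal Matrigel, and without it the fold is a bound of at least 10.0. The mice present in both gels, A and B, differed by 2.76 and 4.37, that of B against a level not well above background. Sftpd differed by 2.82 ± 0.53 (95% interval 1.66 to 3.99, limma adjusted p = 0.0857), a fold of 7.07, with 3.23 and 3.04 in the same mice. Both passed when the mouse was a random block (adjusted p = 0.0399 for each) and when the slide was (0.0472 and 0.0479). Neither passed with the mouse as a fixed block (0.152 and 0.117) or under the normexp correction, where the differences were 1.35 and 1.63 (adjusted p = 0.428 and 0.412). Sftpd also passed without tumor Matrigel C (limma adjusted p = 0.0337) and Foxa2 without normal Matrigel A (0.0361). Without that array, no Foxa2 level left in normal Matrigel was well above background, so this call rests on dim signals. The summed level of 10 leukocyte genes, as multiples of the 75th percentile signal, moved with this comparison, at 40.6 to 62.5 in normal collagen I and 2.34 to 28.2 in normal Matrigel, and its part in the result was not tested. The lysozyme Lyz2 made up 94.4 to 95.4% of that sum in collagen I and 82.5 to 96.0% in Matrigel, and the other 9 genes summed to 1.93 to 3.47 and 0.409 to 1.14. Slides 3 and 4 hold both gels of normal organoids from different mice, A against D and C against B, and Sftpd differed by 3.55 and 1.94 between them. The remaining differences were 1.16 ± 0.64 for Msln, -0.27 ± 0.57 for Dmbt1 and -1.30 ± 0.86 for Jsrp1, with adjusted p-values of 0.661, 0.950 and 0.744. Slc6a4, Degs2 and Fcer2a were not well above background in either gel. Without overlap, Foxa2, Sftpd and Msln were higher, beside 11.6% of all genes, and of the genes measured in either gel 0 were lower, beside 10.0% of all genes. The difference of the gel effects between the tissues passed for 2.64% of all genes in limma and was not tested for these 8.

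**Figure D2:**
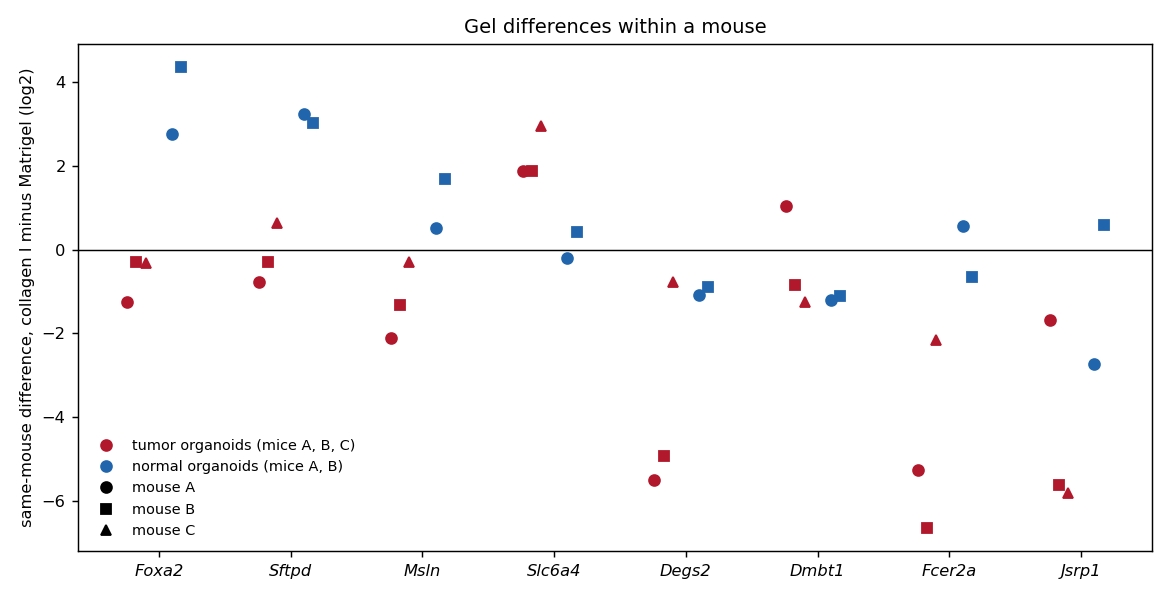
Collagen I minus Matrigel differences (log2, vertical axis) of each of the 8 genes (horizontal axis) within single mice, 3 of tumor organoids and 2 of normal organoids. Slc6a4 lies above 0 and Degs2 below 0 in every tumor mouse, and Foxa2 and Sftpd lie above 0 in both normal mice.

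**Figure D3:**
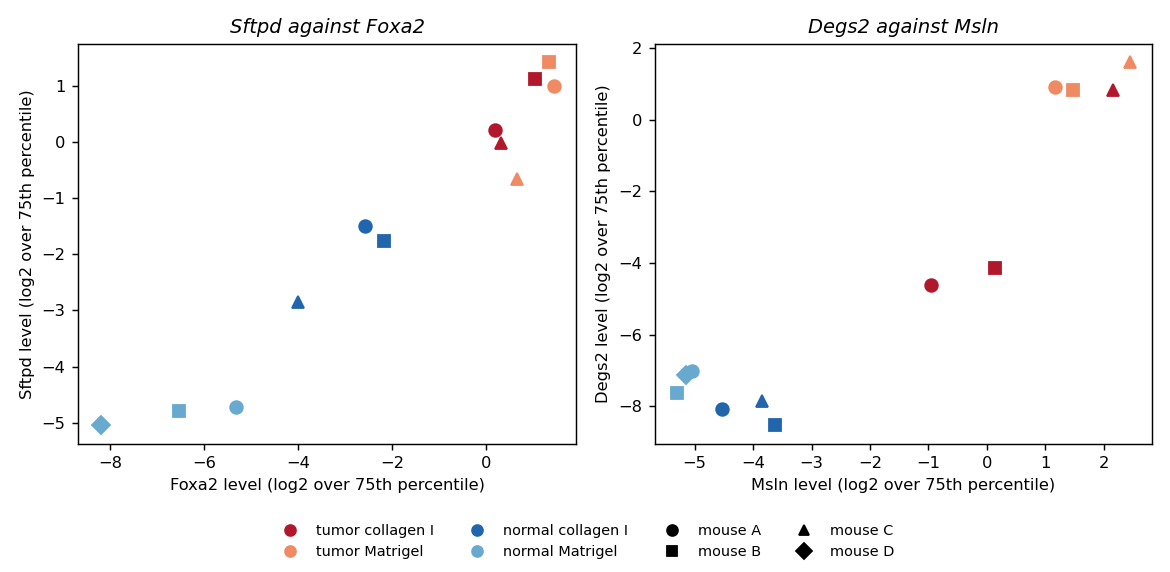
Levels of paired genes on the 12 arrays (log2 signal minus the array's 75th percentile on both axes), coloured by tissue and gel. Foxa2 and Sftpd rank the 4 groups alike, and Msln and Degs2 are both highest in mouse C among the tumor arrays of each gel. Degs2 was not well above background on any normal array.

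Across the 12 arrays Foxa2 and Sftpd had a Pearson r of 0.974, and over the 6 tumor arrays of 0.744. Msln and Degs2 had an r of 0.944 over the 12 arrays and of 0.927 over the 6 tumor arrays. These values are descriptions, since the points share tissue groups and array brightness. Degs2 and Slc6a4 were not well above background on any normal array, and Fcer2a only in tumor Matrigel. Part of each r that involves them, here and below, rests on dim signals. Of all genes tested, those most like Foxa2 over the 12 arrays were Syngr1 (r = 0.975), Sftpd and Il23a (r = 0.972). Those most like Msln were Slc22a23, Irf5 and Plin2 (r = 0.984 to 0.987), and Gnb5 was most like Slc6a4 (r = 0.974). Tnfrsf23, Rnd1 and Pitx1 were most like Degs2 (r = 0.979 to 0.984) and Dpep2, Pcp4 and Cntnap4 most like Dmbt1 (r = 0.989 to 0.992). Entpd2 was most like Fcer2a (r = 0.986) and Mamstr most like Jsrp1 (r = 0.951), and Mpped2 was most like Sftpd (r = 0.974).

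Other genes of the lineages and pathways named above were counted list by list. For comparison with each count, 3.64% of all genes were called higher and 5.02% lower in tumor collagen I than in normal collagen I (8.66% in all), and 25.7% and 26.0% in Matrigel (51.6% in all).

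Of 24 lung and foregut endoderm genes, 19 were tested: 0 were higher and 6 lower in tumor organoids in collagen I, and 1 was higher and 6 lower in Matrigel. The list's median difference was -0.27 in collagen I and -0.14 in Matrigel. Foxa1, the paralog of Foxa2 that luminal mammary cells express, was at -2.73, -3.59 and -6.54 in tumor collagen I, the last not well above background, against 0.07, -0.39 and 0.05 in normal collagen I. In Matrigel it was at -3.59, -4.32 and -4.38 in tumor organoids, against -0.64, -0.42 and -1.17 in normal organoids. It was lower in tumor organoids, at -4.20 ± 0.75 in collagen I and at -3.35 ± 0.75 in Matrigel (limma adjusted p = 0.00575 and 0.00402). The call in collagen I was lost with the slide as a fixed block (adjusted p = 0.0973) and that in Matrigel under the normexp correction (adjusted p = 0.0514). Sftpc, surfactant protein C, was lower, at -4.32 ± 0.72 in collagen I and at least 14.2-fold lower in Matrigel (limma adjusted p = 0.00369 and 0.000566), the call in Matrigel being lost under the normexp correction (adjusted p = 0.232). Aqp5, a water channel, was higher in Matrigel by 2.08 (limma adjusted p = 0.000367). The summed level of the 24 genes, as multiples of the 75th percentile signal, was 56.6 to 94.3 on tumor collagen I arrays, against 71.5 to 96.9 on normal ones, and 287 to 540 on tumor Matrigel arrays, against 87.1 to 128 on normal ones. Aqp5 alone made up 90.7 to 99.0% of these sums. Without it they were 2.98 to 4.51 on tumor collagen I arrays, against 6.06 to 7.21 on normal ones, and 3.96 to 5.59 on tumor Matrigel arrays, against 6.09 to 7.07 on normal ones, so the direction in Matrigel turned. The lung regulator Nkx2-1 and the surfactant gene Sftpa1 were not well above background on any array.

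**Figure D4:**
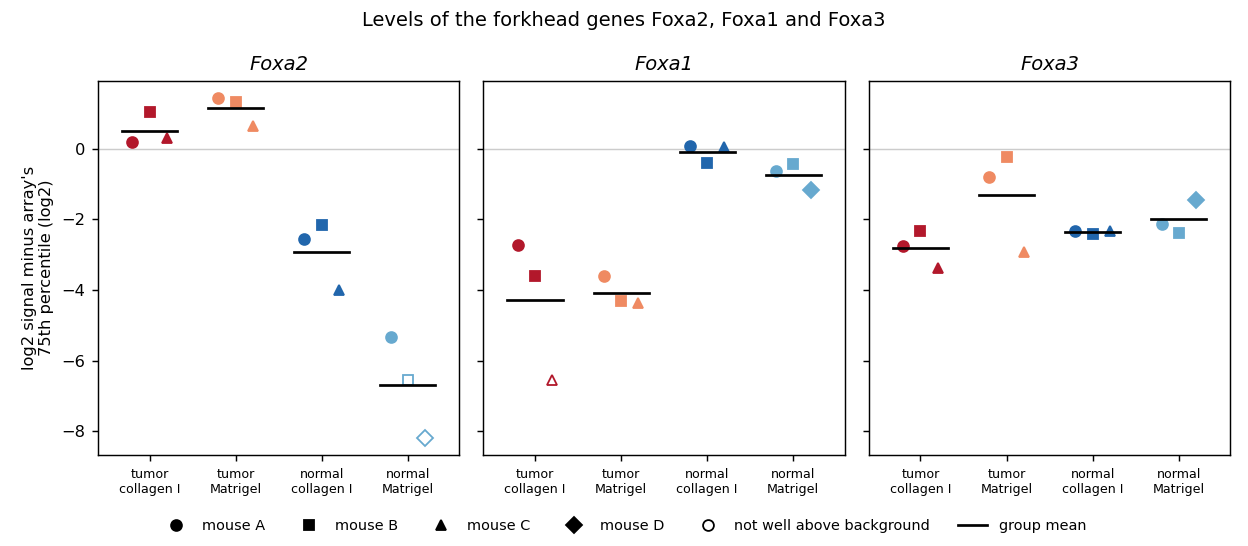
Levels of Foxa1, Foxa2 and Foxa3 on each array (log2 signal minus the array's 75th percentile, vertical axis), by tissue and gel. Foxa2 is higher and Foxa1 lower on the tumor arrays than on the normal ones in both gels.

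Of 11 mesothelial genes on the array, 5 were tested, with 0 higher and 1 lower in tumor organoids in each gel. That gene was Podxl, a sialomucin, at -0.78 ± 0.21 in Matrigel (limma adjusted p = 0.00966), a call lost under several settings. The other of its 2 probes went the other way in Matrigel, at 0.25, and was not called. Upk3b, Lrrn4 and Wt1, which mark mesothelium, were not well above background on any array. Krt19, a keratin also of luminal mammary cells, made up 95.4 to 99.4% of the list's summed level. Without it the sums were 0.781 to 1.83 on tumor collagen I arrays, against 0.858 to 1.01 on normal ones, and 0.936 to 1.34 on tumor Matrigel arrays, against 0.965 to 1.30 on normal ones.

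Of 17 serotonin genes, 9 were tested. In tumor organoids 0 were higher in either gel, 1 was lower in collagen I and 2 were lower in Matrigel, namely the vesicular monoamine transporter Slc18a1 (-2.24 ± 0.40) and the monoamine oxidase Maob (-1.95 ± 0.40; limma adjusted p = 0.00126 and 0.00246). Both calls were lost under the normexp correction, and that of Maob also with the slide as a fixed block. The gene lower in collagen I was Tph1, a serotonin-synthesis enzyme, by at least 2.23-fold (limma adjusted p = 0.0441), a call lost when most single arrays were left out. Slc18a1 and Maob were higher in collagen I than in Matrigel in tumor organoids, by 1.83 and 1.31 (limma adjusted p = 0.00887 and 0.0325), the second lost without any of tumor Matrigel A or C or tumor collagen I A or B. Both calls were lost under the normexp correction. That of Maob was also lost under quantile normalization, with the deposited log2 values and with no filter on dim probes. It was lost too with the slide as a fixed block and when only the compared groups were fitted. Ddc, which makes serotonin from its precursor, was below the background limit on all 12 arrays.

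Of 22 sphingolipid genes on the array, 18 were tested. In tumor organoids 2 were higher and 1 lower in collagen I, and 7 were higher and 3 lower in Matrigel. Degs1, the paralog that makes ceramide, was higher in Matrigel by 1.07 ± 0.21 (limma adjusted p = 0.00197). In collagen I it was not called, with mean levels of 3.86 in tumor and 3.13 in normal organoids. Ugt8a, the galactosylceramide synthase, was lower in Matrigel, at -3.97 ± 0.36 (limma adjusted p = 4.31e-05). Cers4, a ceramide synthase, was lower, at -2.52 in collagen I and -1.12 in Matrigel (limma adjusted p = 0.00061 and 0.0126), and both calls were lost with the slide as a fixed block, that in Matrigel also under the normexp correction.

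Of 21 mucosal secretory genes on the array, 15 were tested. In tumor organoids 1 was higher and 1 lower in collagen I, and 8 were higher and 1 lower in Matrigel, the opposite side to Dmbt1. Ltf, lactoferrin, was higher by 3.96 ± 0.76 in collagen I and 4.79 ± 0.76 in Matrigel (limma adjusted p = 0.00881 and 0.000687), and the call in collagen I was lost with the slide as a fixed block (adjusted p = 0.164). Agr2, a disulfide isomerase of mucus-producing cells, was at least 8.34-fold higher in Matrigel and the mucin Muc2 at least 3.22-fold (limma adjusted p = 0.00181 and 0.00556), the call of Agr2 being lost with the slide as a fixed block (adjusted p = 0.0646). Reg3b, an antibacterial lectin, was at least 3.72-fold lower in collagen I and 2.82-fold lower in Matrigel (limma adjusted p = 0.00227 and 0.000584), and both calls were lost under the normexp correction, that in collagen I also with the slide as a fixed block.

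Of 17 B cell and IgE receptor genes, 12 were tested. In tumor organoids 1 was higher and 3 lower in collagen I, and 2 were higher and 2 lower in Matrigel. Blnk, a B cell adaptor, was higher by 2.28 in collagen I and 3.22 in Matrigel (limma adjusted p = 0.00087 and 4.66e-05). Cd79b, a subunit of the B cell receptor, was at least 4.82-fold lower in Matrigel (limma adjusted p = 0.00122), a call lost under the normexp correction (adjusted p = 0.986). Pax5, Bank1 and Ms4a2 were not well above background on any array. Beside Fcer2a, the summed level of the list was 10.2 to 25.6 on tumor collagen I arrays, against 13.9 to 14.4 on normal ones, and 28.6 to 40.4 on tumor Matrigel arrays, against 15.2 to 23.6 on normal ones. Il4ra, an interleukin receptor chain also found outside B cells, had the highest mean of the list over the 12 arrays. It made up 36.3 to 45.4% of the sum in tumor Matrigel and 25.7 to 34.1% in normal Matrigel. Without it the sums overlapped in Matrigel, at 16.5 to 25.6 on tumor arrays, against 11.3 to 17.1 on normal ones. The 10 leukocyte genes summed to 4.08 to 8.01 on tumor collagen I arrays, against 40.6 to 62.5 on normal ones, and 4.66 to 7.56 on tumor Matrigel arrays, against 2.34 to 28.2 on normal ones. Without Lyz2 they summed to 0.742 to 1.77 on tumor collagen I arrays, against 1.93 to 3.47 on normal ones, and to 2.98 to 4.69 on tumor Matrigel arrays, against 0.409 to 1.14 on normal ones. Cd68 entered that sum at a mean level of 1.61 in tumor Matrigel, against -2.55 in normal Matrigel (log2). In tumor Matrigel 4 of the 10 genes were never well above background, and a sum without Cd68 was not taken. Of 8 leukocyte genes tested, 0 were higher and 4 lower in collagen I, and 1 was higher (the lysosomal Cd68, by 4.16 ± 0.43, limma adjusted p = 7.88e-05) and 1 lower in Matrigel (Lyz2, at -2.37 ± 0.82, limma adjusted p = 0.032, a call lost without any of tumor Matrigel A or C or normal Matrigel A or D). The part of such cells in the values of Fcer2a was not tested.

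Of 21 muscle genes for calcium release and contraction, 14 were tested. In tumor organoids 1 was higher and 3 lower in collagen I, and 1 was higher and 7 lower in Matrigel. Acta1, skeletal actin, was lower, at -3.34 ± 0.39 in collagen I and -4.60 ± 0.39 in Matrigel (limma adjusted p = 0.000351 and 2.89e-05), and the call in collagen I was lost with the slide as a fixed block (adjusted p = 0.0864). Jph2, which ties the sarcoplasmic reticulum to the surface membrane, was lower, at -3.46 ± 0.27 and -2.76 ± 0.27 (limma adjusted p = 3.5e-05 and 5.91e-05). Its call in collagen I was lost with the slide as a fixed block (adjusted p = 0.0526) and that in Matrigel under the normexp correction (adjusted p = 0.980). Trdn and Pvalb were not well above background on any array. Ryr1, the calcium-release channel, has 3 probes, with differences of 1.45 to 1.53 in Matrigel, of which 2 passed and the 1 that represents the gene here did not (limma adjusted p = 0.0556).

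Genes of the mammary epithelium itself were also compared. Of 9 luminal genes, 0 were called in collagen I in limma, where 1 had an unadjusted p under 0.05. In Matrigel 5 were higher in tumor organoids, Cldn3 by 1.47 and Elf3 by 1.42 (limma adjusted p = 0.000812 and 0.000465). The calls of the others, Krt8, Krt18 and Epcam, were lost under quantile normalization and with the deposited log2 values. Those of Krt8 and Epcam were also lost under the normexp correction. The luminal summed level was 627 to 781 on tumor collagen I arrays, against 552 to 654 on normal ones. In Matrigel it was 1050 to 1531 on tumor arrays, against 588 to 732 on normal ones. Krt18 made up 48.7 to 52.9% of the sum on tumor Matrigel arrays. Without Krt18 the sums in Matrigel were 494 to 770 on tumor arrays, against 316 to 414 on normal ones. Of 7 basal genes, 1 was higher and 3 lower in each gel. The higher one was Trp63, by 1.20 in collagen I and 0.94 in Matrigel (limma adjusted p = 0.0394 and 0.028). Both calls were lost under several settings and without several single arrays. Acta2 was not called by the probe that represents it. Of its 4 probes, however, 3 were called lower in each gel, down to -4.83 in collagen I and -8.39 in Matrigel. The smooth muscle myosin Myh11 was lower, at -5.80 and -7.05 and calponin, Cnn1, at -4.84 and -5.48 in collagen I and in Matrigel (limma adjusted p = 3.5e-05, 7.59e-06, 1.44e-05 and 2.02e-06). The basal summed level overlapped between the tissues, at 245 to 619 on tumor collagen I arrays, against 244 to 257 on normal ones. In Matrigel it was 124 to 417 on tumor arrays, against 129 to 511 on normal ones. Krt14 made up 57.6 to 69.5% of the sum in tumor and 28.7 to 34.4% in normal collagen I. In Matrigel its share was 47.9 to 71.7% in tumor and 16.8 to 33.7% in normal organoids. The part of the epithelial makeup in the levels of the 8 genes was not tested. Between the gels in normal organoids, 0 of the 116 tested genes of these 10 lists were called in limma, beside 0.0438% of all genes. An unadjusted p under 0.05 was found for 18 of the 116, beside 9.07% of all genes, and 7 of the 18 were leukocyte genes. In tumor organoids 8 of the 116 were called higher and 13 lower between the gels, beside 15.8% and 12.1% of all genes.

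**Figure D5:**
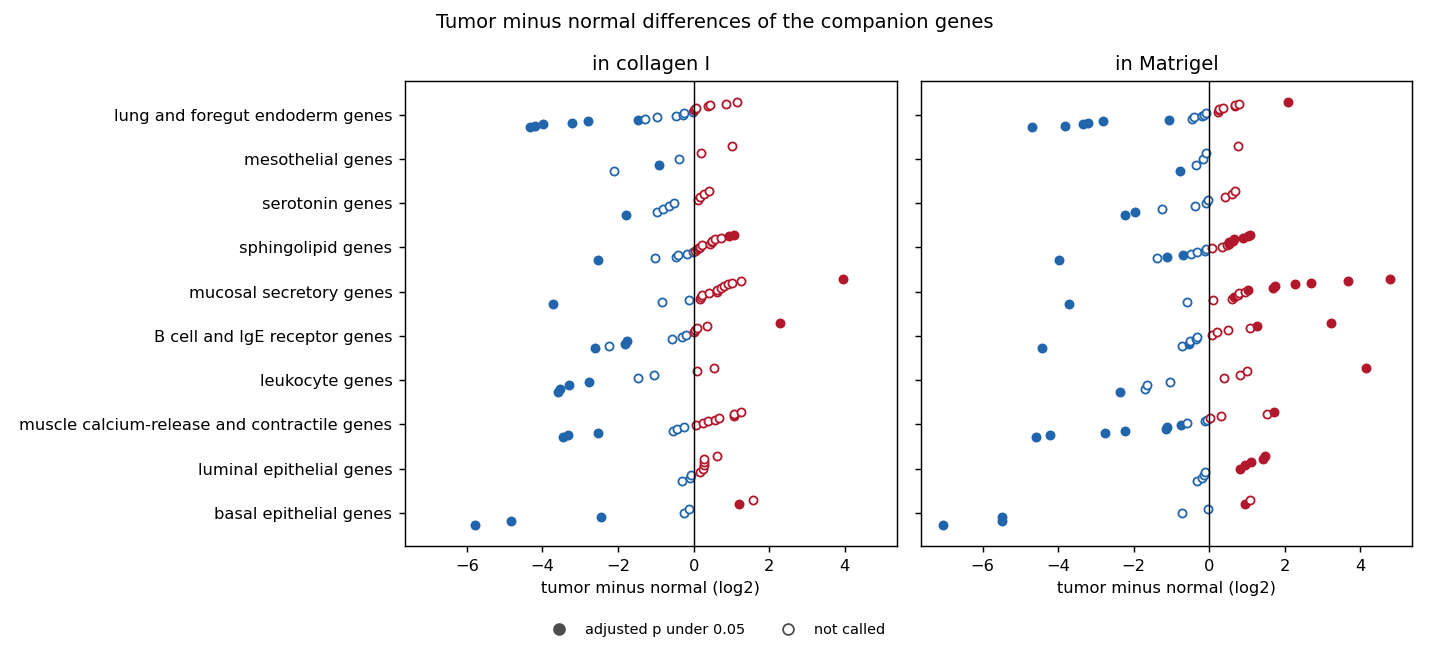
Tumor minus normal differences (log2, horizontal axis) of the tested genes of each companion list, in collagen I and in Matrigel, with filled points for limma adjusted p under 0.05. Lung and foregut genes have 6 called lower in each gel, and mucosal genes 8 called higher in Matrigel.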

How the data were processed

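Per the labels' protocols, total RNA of 13 samples was amplified with a low-input kit, labelled with Cy3 and hybridised to 1-colour Agilent arrays. Of 14 arrays, 12 belong to batch 2 and entered every comparison; 2 belong to batch 1 and are given as levels. The sample of normal Matrigel B, labelled batch 1, has 2 arrays because, per its label, the same RNA was hybridised in both batches, and its deposited log2 column averages them; normal Matrigel A has 1 sample in each batch. The intensity used is the processed signal deposited by the authors, spatially detrended and with low values replaced by surrogates, per the file headers, which name Feature Extraction 9.5.1.1, while the submitters' processing notes name 9.1. The log2 values deposited by the authors, 1 column per sample, followed the arrays at r of 0.992 to 0.9999 and served as an alternative; how they were centred is not known here.

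From the intensities, log2 minus each array's 75th percentile was taken, control and outlier spots (52 to 139 per array) were left out, and a probe's spots were averaged, leaving 41174 probes. Probes that at least 1 group showed well above background throughout, 26604 in number, were retained, and the probe with the highest mean represented each gene (18274 genes). RefSeq names of GRCm38.p6 covered 22951 probes (55.7%), and the files' names were kept otherwise. The 4 groups were fitted in limma 3.58.1 over 12 arrays (residual df 8, prior df 2.75; R 4.3.3, tables read with data.table in version 1.17.8), with Benjamini-Hochberg adjustment in each comparison and a threshold of 0.05. With 3 arrays a group, the lowest exact permutation p is 0.1, and the number of arrays limits the precision. Figures were drawn with Python 3.11.15, pandas 2.3.3 and matplotlib 3.10.9. The fit was tested on simulated data.

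The 8 genes and the companion lists were chosen with earlier results of these data known. The genes named are the 8, up to 4 called members of each list by size of change, or those highest in mean where none was called, and the 3 genes most correlated with each of the 8. Genes named as not called or not well above background, the paralogs Foxa1 and Degs1 with their values in both gels, and Aqp5, Krt14, Krt19, Il4ra and Lyz2 were singled out after their values were seen. The difference of gel effects between tissues had been planned as a test, but it is the difference of the 2 comparisons that chose the genes, so it carries no p-value here.

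Same-letter samples share an animal within a tissue, so the mouse pairs the gels. The correlations of their deviations from group means were -0.06, 0.32 and 0.42 in the tumor mice (A, B, C), and 0.24 and -0.24 for normal mice A and B. Alternatives covered background correction (normexp with an offset of 50), normalization, filters, probe choice, slide and mouse as blocks, and each array left out.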

Additional observations from a re-analysis of the deposited data

Results flagged for a closer look

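The gel difference of Foxa2 ran in opposite directions in tumor and normal organoids in every mouse that was in both gels. Collagen I minus Matrigel was -1.25, -0.30 and -0.33 in tumor mice A, B and C, against 2.76 and 4.37 in normal mice A and B, that of B set against a Matrigel level not well above background. The gel difference in tumor minus that in normal organoids was -4.40 ± 0.94 (log2, SE), and -1.80 under the normexp background correction. Msln did the same, with -2.12, -1.33 and -0.29 in tumor mice, against 0.51 and 1.68 in normal mice, and its difference of differences was -2.41 ± 0.91, and -1.30 under normexp. Neither difference of differences was tested, since it is made of the comparisons that chose these genes. Within a tissue, the gel difference passed for neither gene. The limma adjusted p in tumor organoids was 0.504 for Foxa2 and 0.170 for Msln, and in normal organoids 0.0744 and 0.661.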

How the results depend on the processing

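Every tumor-to-normal difference of the 8 genes kept its direction under all alternatives run, except that of Jsrp1 in collagen I. Under the normexp correction, which moved the median over all genes to 0.45 in Matrigel (0.08 before), the Matrigel differences of the genes measured on every array were 3.91 for Sftpd, 4.88 for Msln and -5.06 for Dmbt1. Foxa2 was at 4.67, beside 7.83 in the main fit. Where a fold was a bound, the Matrigel differences were 4.78 for Degs2, 2.81 for Fcer2a and 2.17 for Slc6a4, beside bounds of 7.23, 4.26 and 2.88 (log2). In collagen I they were 2.56 for Degs2 and 3.12 for Slc6a4, beside bounds of 3.63 and 5.27. These values fell short of the lower bounds. The correction added an offset of 50 to every signal, which by itself shrinks differences against dim groups. It therefore cannot decide whether the bounds hold. Counts of called genes were 1582 between tissues in collagen I, 5098 between gels in tumor organoids, 8 in normal organoids and 482 for the difference of gel effects, and they moved as follows. Under normexp they were 743, 1252, 4 and 10, the share called higher being 56.3% in place of 42.0% between tissues in collagen I, 39.1% in place of 56.8% between gels in tumor organoids, and 77.1% in place of 49.7% between tissues in Matrigel. With the slide as a fixed block they were 193, 2671, 0 and 1351. The filter on all 12 arrays gave 951 between tissues in collagen I. Fits of only the compared groups gave 2281 between gels in tumor and 3 in normal organoids. For normal organoids and the difference of gel effects, quantile normalization gave 18 and 212, averaging batch 1 gave 13 and 2233, and the slide as a random block gave 51 and 1676. The deposited log2 values gave 143 and no filter gave 61 for the difference of gel effects. Leaving out 1 array gave 760 to 1877, 2751 to 5423, 4 to 23 and 12 to 2099, and 7400 to 9728 between tissues in Matrigel, against 9437. The cause was not tested.

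The replicate block of mouse, which pairs the gels, gave 71 calls in normal organoids and 1716 for the difference of gel effects as a random block (correlation 0.20), and 0 and 0 as a fixed block. Among the 8 genes it changed only the calls of Foxa2 and Sftpd in normal organoids.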

Other observations

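The 2 batch 1 arrays repeated normal Matrigel mice A and B. Dmbt1 was at 2.31 and 3.12 there and Sftpd at -3.95 and -3.94, while Foxa2 (-6.48 and -6.19), Msln (-5.08 and -5.88), Slc6a4 (-6.77 and -6.78), Degs2 (-6.96 and -6.75) and Fcer2a (-6.92 and -6.62) were not well above background on either (log2 levels). Jsrp1 was at -5.35 and -4.56, well above background in mouse B only.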
